A study of Mus musculus with 16 samples.

Results

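The 8 genes described here encode enzymes of glucose metabolism in mouse liver: the hexokinases Hk1, Hk2 and Hk3, the pyruvate kinase Pklr, the gluconeogenic enzymes Pck1, G6pc and Fbp1, and the glycogen synthase Gys2. They were picked by symbol for their roles, not by a threshold on their values, and are 8 of the 24357 genes tested, measured by 10 probes. Male BALB/c mice aged 6 to 8 weeks received CCl4, a hepatotoxin that causes fibrosis on repeated dosing, in corn oil by intraperitoneal injection at 0.5 ml/kg 2 times a week for 4 weeks, with the liver collected 48 h after the final injection. Controls received corn oil. The 4 groups were wild type (WT) control (n = 4), Lcn2-/- control (n = 3), WT with CCl4 (n = 5) and Lcn2-/- with CCl4 (n = 4). The Lcn2-/- mice lack lipocalin 2 in every cell, were made on a mixed background, and had been backcrossed to BALB/c. Whole liver RNA was hybridized to 1-colour arrays, so that a value pools all cells of the organ, and fewer cells of a type and less RNA per cell cannot be told apart. The study's figure legends count the arrays of the CCl4 groups as mice, while the labels number the control arrays without naming animals, so p-values measure the spread between these arrays.

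Glucose entering a cell is phosphorylated by a hexokinase. Of the forms described here, Hk1 serves most cells other than hepatocytes, Hk2 serves muscle and fat, and myeloid cells carry Hk3. At the end of glycolysis the hepatocyte form of pyruvate kinase is made from Pklr and the form of most other cells from Pkm. In the opposite direction, Pck1 makes phosphoenolpyruvate from oxaloacetate, Fbp1 removes a phosphate from fructose 1,6-bisphosphate and G6pc releases free glucose into the blood, while Gys2 is the liver enzyme that extends glycogen chains.

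The control regions of 3 of these genes are shown because Pklr and G6pc rose with CCl4 in WT livers whereas Pck1, the other classical hormone-controlled gene of the group, did not pass the test. RefSeq promoter windows of GRCm38.p6 were found for 7 of the 8 genes, and Gys2 had no entry. The 250 bases before the start of each gene are given 5′ to 3′ on the gene's strand, with motif matches in capitals. The windows lie at chr3:89136373-89136622 (+) for the hepatocyte start of Pklr, chr11:101367466-101367715 (+) for G6pc and chr2:173152823-173153072 (+) for Pck1.
Pklr: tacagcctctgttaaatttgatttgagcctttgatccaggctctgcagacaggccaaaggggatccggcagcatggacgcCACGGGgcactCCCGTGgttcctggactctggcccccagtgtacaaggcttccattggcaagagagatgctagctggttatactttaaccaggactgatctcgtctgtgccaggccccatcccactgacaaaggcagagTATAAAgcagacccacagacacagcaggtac
G6pc: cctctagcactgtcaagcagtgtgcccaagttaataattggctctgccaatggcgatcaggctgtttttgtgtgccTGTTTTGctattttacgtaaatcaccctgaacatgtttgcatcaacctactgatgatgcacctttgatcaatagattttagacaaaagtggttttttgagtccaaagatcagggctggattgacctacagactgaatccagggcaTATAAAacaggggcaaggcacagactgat
Pck1: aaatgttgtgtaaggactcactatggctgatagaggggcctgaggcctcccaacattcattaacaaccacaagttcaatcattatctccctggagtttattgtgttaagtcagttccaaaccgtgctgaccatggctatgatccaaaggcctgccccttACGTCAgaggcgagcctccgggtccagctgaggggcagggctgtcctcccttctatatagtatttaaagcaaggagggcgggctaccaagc

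The 4 motifs were chosen with these sequences known and were searched on both strands, and a match describes letters, not binding. The Pklr window held the pair CACGNG and CNCGTG with 5 bases between, the spacing of a carbohydrate response element, from 170 to 154 bases before the start. Of 32851 mouse promoter windows of the same length, 13 held it (0.0396%). The forkhead motif TGTTTTG lay 174 to 168 bases before the G6pc start and occurred in 5.56% of windows. The cAMP response motif ACGTCA lay 91 to 86 bases before the Pck1 start and 51 to 46 bases before that of Hk2, and was present in 6.47% of windows. The letters TATAAA stood 31 to 26 bases before the Pklr start and 29 to 24 bases before that of G6pc, against 12.4% of windows.

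Signals are given as log2 of the normalized spot signal, and a difference of 1 on that scale is a doubling. Across the 16 arrays, 51.6% to 60.9% of spots were well above background and no spot was saturated. Lcn2, the deleted gene, was at 13.80 to 17.57 on the 9 WT arrays and at 10.46 to 12.25 on the 7 Lcn2-/- arrays. It was lower on each Lcn2-/- array than on each WT array but stayed well above background. The third array of each control group stood apart in leukocyte and proliferation genes. The mean of 8 neutrophil genes was 7.86, 8.36 and 8.63 on WT control 1, 2 and 4 and 10.14 on WT control 3. Among Lcn2-/- controls it was 7.42 and 7.75 on the first pair and 10.75 on Lcn2-/- control 3. Both high values lay within the range of 9.75 to 10.98 on the 9 CCl4 arrays. The mean of 4 proliferation genes was 9.89 on WT control 3 against 7.81 to 8.01 on the other WT controls, and 8.50 on Lcn2-/- control 3 against 6.73 and 6.83. The differences of the 8 genes are therefore plotted with and without both of these arrays, and counts that moved by more than 1.5 times are given both ways. The hepatocyte list, of which 7 of 8 genes were tested, stayed between 18.17 and 18.50 on all arrays, and limma called none with CCl4, while 1 (Ass1, in WT) had an unadjusted p under 0.05.

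With CCl4, 3 of the 8 genes rose in WT livers: Hk1, Pklr and G6pc passed the test of limma with Benjamini-Hochberg adjustment over all genes, and none fell. Over all genes, 16.7% were called in this comparison and 8.05% were called higher. The WT count of members was 0 to 3 when 1 array was left out. With no filter on dim probes, or with replicate number or tier of the slide as a term, Pklr alone was called. In Lcn2-/- livers none of the 8 was called, against 12.1% of all genes. The limma adjusted p of the same 3 genes there lay between 0.0693 and 0.0972. These 3 had an unadjusted p under 0.05, a threshold for which no share of all genes is given. A fit with array weights called 4 of the 8 there, and 6975 of the 24357 genes. With 1 probe per gene, all 8 differences were above 0 in both genotypes. Those of Fbp1 and Gys2 in WT and of Hk3, Pck1 and Gys2 in Lcn2-/- livers were smaller than their SE. A second Hk1 probe lay below 0 in both genotypes (−0.06 and −0.16). In Lcn2-/- livers a second Gys2 probe had a mean of 16.97 in controls and 16.89 with CCl4. With 75th percentile scaling Fbp1 and Pck1 lay below 0 in both genotypes. The median of the 8 was 0.95 in WT and 0.63 in Lcn2-/- livers, beside medians of −0.03 and −0.02 over all genes. Without both control 3 arrays it was 0.90 and 1.25, so that the order of the genotypes turned. Genes of hepatocytes (Pklr, G6pc) and a gene of other cells (Hk1) were thus among those called higher. The Hk1 call rested on 1 of its probes and held in 9 of 16 fits that left out 1 array. These calls did not show an exchange of the hepatocyte set for the other, and they are too few and unsteady to settle the question. Of the hepatocyte enzymes among the 8, Fbp1 alone was called lower in any setting run, in WT livers with arrays scaled to their 75th percentile.

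**Figure D1:**
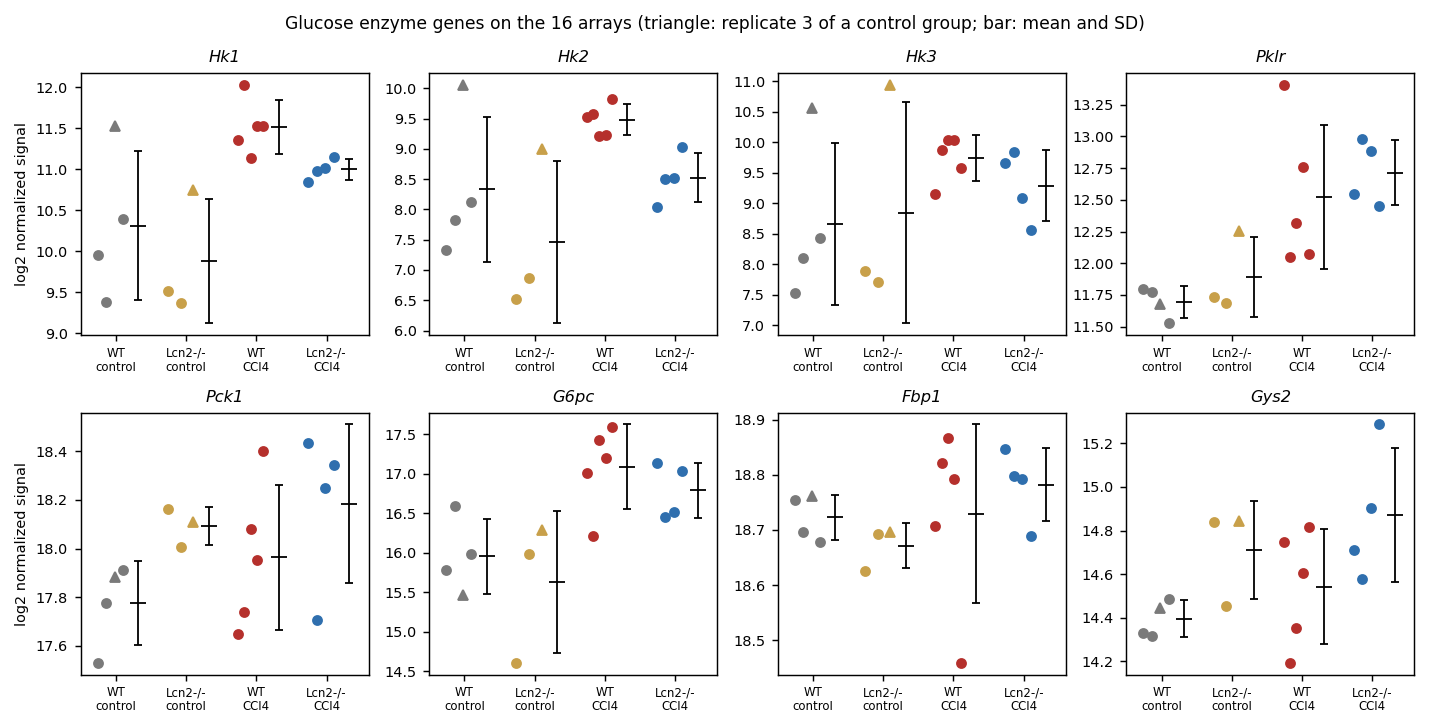
Log2 normalized signal of the 8 genes (y axis) on each array, by group (x axis). Points are arrays, triangles are replicate 3 of a control group, and bars give the mean and SD. The triangles lie far above the other controls for Hk1, Hk2 and Hk3, whereas Pklr lies higher on every CCl4 array of WT mice (12.05 to 13.40) than in WT controls (11.53 to 11.80).

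Hk1, the hexokinase that most cells outside the liver parenchyma use, was 2.30-fold higher in WT livers after CCl4. Its main probe (chr10:61731856-61731915 of mm9, minus strand) read 9.95, 9.39, 11.53 and 10.39 in WT controls and 11.36, 12.03, 11.14, 11.53 and 11.53 with CCl4. The groups overlapped only through WT control 3, which was as high as the CCl4 arrays. The Lcn2-/- arrays read 9.52, 9.37 and 10.75 in controls and 10.85, 10.99, 11.02 and 11.15 with CCl4. The groups did not overlap, with Lcn2-/- control 3 just under the lowest CCl4 array. Non-overlapping groups with the higher values in CCl4 were found for 3 of the 8 genes in Lcn2-/- livers, Hk1, Pklr and G6pc, and for 12.1% of all genes. The log2 difference of Hk1 was 1.20 (SE 0.37, limma, adjusted p = 0.0372) in WT and 1.12 (SE 0.42, adjusted p = 0.0972) in Lcn2-/- livers. The WT call of Hk1 was lost in 7 of 16 fits that left out 1 array (WT control 1, 2 or 4, or WT CCl4 1, 2, 4 or 5), with differences of 0.89 to 1.24 and adjusted p up to 0.135.

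A second Hk1 probe did not show this. It lies at chr10:61732717-61732776 of mm9, in the same transcripts but nearer their 5′ end, and read 7.47 to 8.28 over the 16 arrays. Its difference with CCl4 was −0.06 (SE 0.16, limma, adjusted p = 0.845) in WT livers and −0.16 (adjusted p = 0.62) in Lcn2-/- livers. With both probes averaged, Hk1 was no longer called in WT (0.57, limma adjusted p = 0.0796). The WT call of the main probe was also lost with replicate number or tier of the slide as a term, and with no filter on dim probes. The last 30 of the 60 bases of each probe are shown because the probes of this gene disagree, with no part set in capitals.
Hk1 main probe: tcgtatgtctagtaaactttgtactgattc
Hk1 second probe: ttcctcctgtctgaagacggcagcggcaag

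Hk2, the insulin-responsive hexokinase of muscle and fat, was higher on average with CCl4 but was not called. It read 7.32, 7.83, 10.05 and 8.13 in WT controls and 9.53, 9.58, 9.22, 9.23 and 9.83 in WT livers with CCl4. A single control array, WT control 3, exceeded all CCl4 arrays. The Lcn2-/- values of Hk2 were 6.52, 6.86 and 9.0 in controls and 8.04, 8.51, 8.51 and 9.03 with CCl4. Lcn2-/- control 3 fell among the CCl4 arrays and the other controls lay below them. The difference was 1.15 (SE 0.53, limma, adjusted p = 0.158) in WT and 1.06 (SE 0.60, adjusted p = 0.277) in Lcn2-/- livers, where it was 0.59 without Lcn2-/- control 1. The Hk2 probe lies at chr6:82675056-82675115 of mm9.

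Hk3, the hexokinase of myeloid cells, had the widest spread between controls. It read 7.53, 8.10, 10.56 and 8.44 in WT controls and 9.16, 9.87, 10.04, 10.04 and 9.58 with CCl4. For the Lcn2-/- mice it read 7.89, 7.71 and 10.94 in controls and 9.66, 9.85, 9.09 and 8.56 with CCl4. The third control array was the highest of its genotype in both cases, above every CCl4 array. The difference was 1.08 (SE 0.66, limma, adjusted p = 0.288) in WT and 0.44 (SE 0.75, adjusted p = 0.749) in Lcn2-/- livers, where it was −0.04 without Lcn2-/- control 1 and −0.12 without Lcn2-/- control 2. The Hk3 spot (chr13:55107900-55107959 of mm9) sits in row 3 at the edge of the array. Its signal of 215 to 2016 on the linear scale stayed above the median of the nearby dark control spots, which was 42.4 to 113 per array. On Lcn2-/- control 1 the brightest of the 15 dark spots (824) exceeded Hk3 (257), and on Lcn2-/- CCl4 3 the brightest reached 349, below Hk3 at 713. Hk3 was above the brightest dark spot on the arrays other than Lcn2-/- control 1.

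Without WT control 3 and Lcn2-/- control 3, all 3 hexokinases were called in both genotypes. Leaving out this pair was chosen with earlier results of these data known, and they were the controls highest in Hk1, Hk2 and Hk3, so that their removal raises these differences by construction. The calls describe the remaining arrays and are not read as support for a rise. In WT livers Hk1 was then 3.04-fold higher (1.61, SE 0.22, limma, adjusted p = 0.00024), Hk2 3.29-fold (1.72, adjusted p = 0.000229) and Hk3 3.29-fold (1.72, adjusted p = 0.00152). In Lcn2-/- livers the differences were 1.55 for Hk1 (adjusted p = 0.00183), 1.83 for Hk2 (adjusted p = 0.000977) and 1.49 for Hk3 (adjusted p = 0.0157). This left 4 of the 8 genes called in WT (with Pklr) and 4 in Lcn2-/- livers (with G6pc). Over all genes, 22.3% and 15.1% were called in the same fits.

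Among the controls of each genotype, the array highest in Hk1, Hk2 and Hk3 was also the one highest in neutrophil genes. Of the 8 neutrophil genes, all tested, 4 were called higher with CCl4 in WT and 1 in Lcn2-/- livers, and without both control 3 arrays 6 and 5. Of the 8 Kupffer cell and macrophage genes, 2 were called higher and 2 lower in WT livers, 2 higher in Lcn2-/- livers, and without both control 3 arrays 4 were called higher in each genotype and 2 lower in WT. Their mean was 10.94 to 12.76 in WT controls and 11.86 to 12.42 with CCl4. For the Lcn2-/- mice that mean was 10.85 to 11.99 in controls and 11.44 to 12.21 with CCl4. Of the 4 proliferation genes, 1 was called higher in each genotype, and 3 without both control 3 arrays. Among all genes 16.7% were called in WT and 12.1% in Lcn2-/- livers, or 22.3% and 15.1% without both control 3 arrays. The part of these cells and of proliferation in the hexokinase results was not tested.

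**Figure D2:**
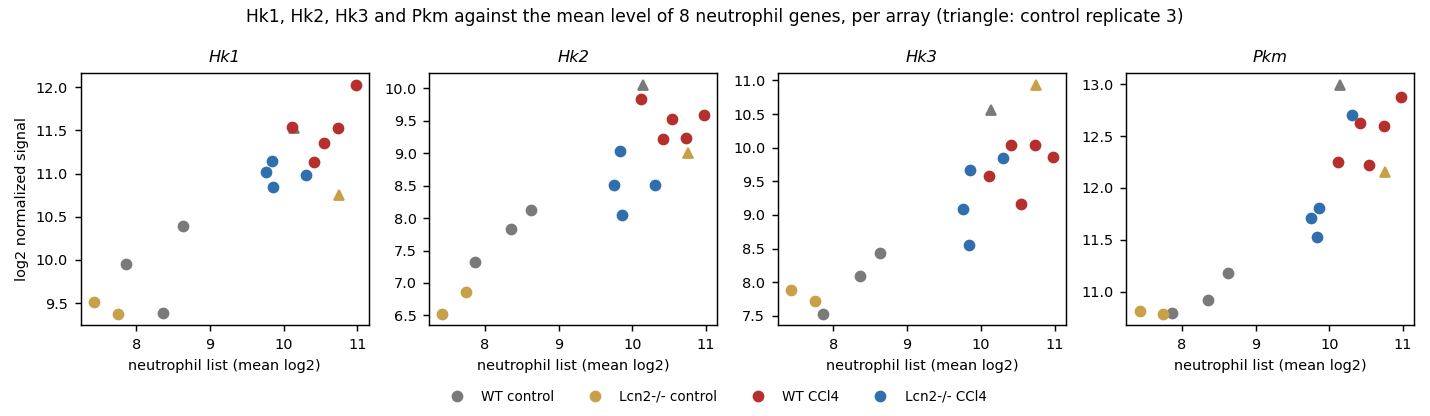
Log2 normalized signal of Hk1, Hk2, Hk3 and Pkm (y axis) against the mean log2 signal of 8 neutrophil genes (x axis), 1 point per array, coloured by group, with replicate 3 of each control group as a triangle. Both triangles lie at 10.14 and 10.75 on the x axis, among the CCl4 arrays (9.75 to 10.98) and away from the other controls (7.42 to 8.63).

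Pklr, the pyruvate kinase of hepatocytes, rose with CCl4 to 1.77 times its control level in WT livers. It read 11.80, 11.78, 11.68 and 11.53 in WT controls and 13.40, 12.05, 12.32, 12.76 and 12.07 with CCl4. The groups did not overlap, and WT CCl4 1 was the highest array. Lcn2-/- controls read 11.74, 11.69 and 12.26 and Lcn2-/- CCl4 arrays 12.55, 12.98, 12.88 and 12.45, again without overlap. The difference was 0.82 in both genotypes, with SE 0.24 and a limma adjusted p of 0.0321 in WT, and SE 0.28 and an adjusted p of 0.0693 in Lcn2-/- livers. Pklr was the only member whose groups did not overlap in WT livers, where 8.09% of all genes had higher, non-overlapping values with CCl4. The probe spans an exon junction, with its ends at chr3:88948907-88949425 of mm9, so that its 60 bases cover 519 genomic bases.

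The WT call of Pklr held under the changes of processing tried other than leaving out 1 array, with differences of 0.60 to 0.94, not counting the fit with slide as a fixed term, which rests on 1 CCl4 array. Leaving out WT control 1, 2 or 4 or WT CCl4 4 ended the call, with adjusted p up to 0.0789. Without both control 3 arrays it was 0.82 (limma, adjusted p = 0.046) in WT and 1.00 (adjusted p = 0.0533) in Lcn2-/- livers.

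G6pc, which encodes the enzyme that releases free glucose, was 2.19-fold higher with CCl4 in WT livers. It read 15.78, 16.60, 15.47 and 15.98 in WT controls and 17.01, 16.22, 17.43, 17.20 and 17.59 with CCl4. WT CCl4 2 lay below the highest control and the other CCl4 arrays lay above all controls. The Lcn2-/- values of G6pc were 14.61, 15.99 and 16.29 in controls and 17.14, 16.46, 16.52 and 17.04 with CCl4. These groups did not overlap, and Lcn2-/- control 1 was the lowest array of all. The difference was 1.13 (SE 0.35, limma, adjusted p = 0.0413) in WT and 1.16 (SE 0.40, adjusted p = 0.0767) in Lcn2-/- livers. Without both control 3 arrays the call was lost in WT (0.97, adjusted p = 0.0735) and gained in Lcn2-/- livers (1.49, adjusted p = 0.0331), and with 75th percentile scaling it was 0.86 (adjusted p = 0.124) in WT. Leaving out 1 array ended the WT call of G6pc in 8 of 16 fits (WT control 1, 3 or 4, WT CCl4 1, 3, 4 or 5, or Lcn2-/- CCl4 3), at 0.97 to 1.15 and adjusted p up to 0.113. The WT call was also lost with replicate number or tier of the slide as a term, and with no filter on dim probes. Without Lcn2-/- control 1 the Lcn2-/- difference was 0.65 (limma adjusted p = 0.351). The probe lies at chr11:101238947-101239006 of mm9.

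Pck1, which catalyses the first committed step of gluconeogenesis, was not called. It read 17.53, 17.77, 17.88 and 17.91 in WT controls and 17.65, 17.74, 18.08, 17.95 and 18.40 with CCl4. Among the Lcn2-/- mice it read 18.16, 18.01 and 18.11 in controls and 18.43, 17.71, 18.25 and 18.35 with CCl4. The groups overlapped in both genotypes. The difference was 0.19 in WT livers, with a 95% interval of −0.18 to 0.55 and a limma adjusted p of 0.490. In Lcn2-/- livers it was 0.09 (SE 0.19, adjusted p = 0.809). Its probe lies at chr2:172984307-172984366 of mm9.

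Fbp1, which removes the phosphate of fructose 1,6-bisphosphate, had the narrowest spread of the 8 genes. It read 18.75, 18.70, 18.76 and 18.68 in WT controls and 18.71, 18.82, 18.87, 18.79 and 18.46 with CCl4. The Lcn2-/- values were 18.63, 18.69 and 18.70 in controls and 18.85, 18.80, 18.79 and 18.69 with CCl4. WT controls lay inside the range of the WT CCl4 arrays, and in Lcn2-/- livers the highest control (18.70) lay just above the lowest CCl4 array (18.69). The difference was 0.01 in WT livers (95% interval −0.19 to 0.20, limma, adjusted p = 0.973) and 0.11 (adjusted p = 0.532) in Lcn2-/- livers. Scaled to the 75th percentile, Fbp1 was lower with CCl4 instead, at −0.50 (adjusted p = 0.0342) in WT and −0.34 (adjusted p = 0.215) in Lcn2-/- livers, and Pck1 moved to −0.22 and −0.32. That scaling shifted bright probes as a whole. The median difference of the 787 genes with a mean of at least 17 was −0.40 in WT and −0.37 in Lcn2-/- livers, beside 0.00 and −0.01 with quantile normalization, and the median of all genes was −0.16 and −0.14. The Fbp1 probe lies at chr13:62966175-62966234 of mm9.

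Gys2, the liver glycogen synthase, was not called either. Its main probe (chr6:142371915-142371974 of mm9) read 14.33, 14.32, 14.44 and 14.49 in WT controls and 14.75, 14.19, 14.35, 14.61 and 14.82 with CCl4. Among the Lcn2-/- mice it read 14.84, 14.45 and 14.84 in controls and 14.71, 14.58, 14.90 and 15.29 with CCl4. The groups overlapped in both genotypes. The difference was 0.15 in WT livers (95% interval −0.20 to 0.49, limma, adjusted p = 0.578) and 0.16 (adjusted p = 0.623) in Lcn2-/- livers. A second probe, unusable on Lcn2-/- CCl4 4 and therefore outside the fit, had a mean of 16.77 in WT controls and 16.87 with CCl4, and of 16.97 and 16.89 in the Lcn2-/- groups.

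**Figure D3:**
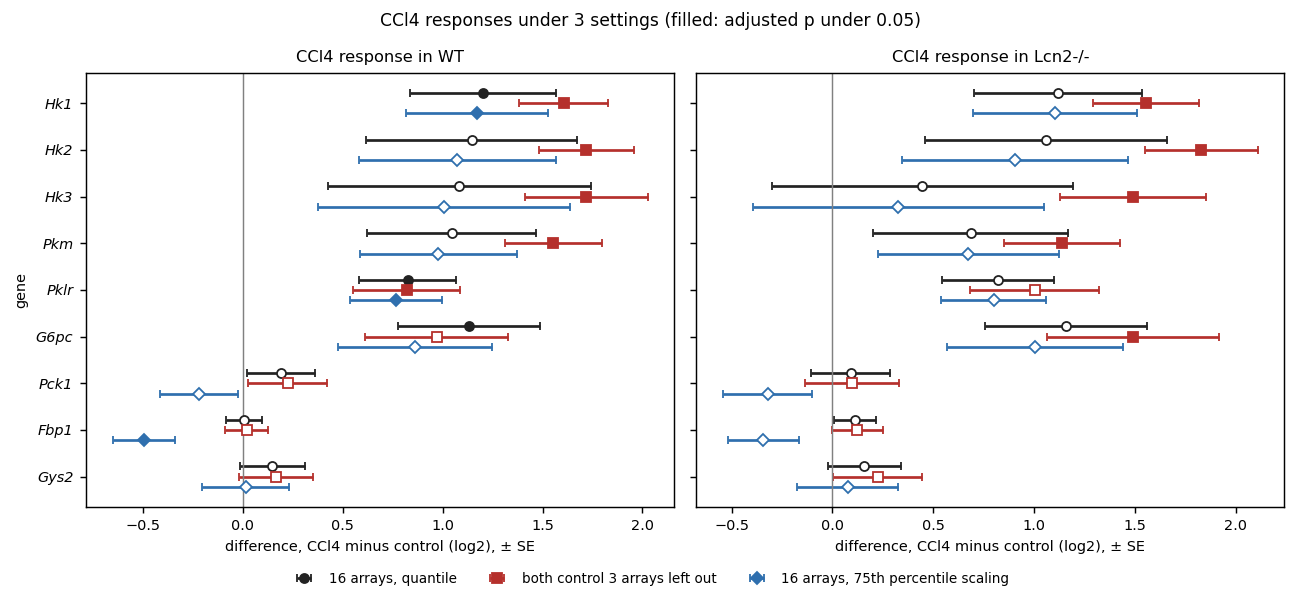
Difference between CCl4 and control (x axis, log2, bars ± SE) of the 8 genes and of Pkm in each genotype, for all 16 arrays with quantile normalization (circles), without both control 3 arrays (squares) and with 75th percentile scaling (diamonds). Filled symbols have an adjusted p under 0.05. Leaving out those arrays moves Hk1, Hk2, Hk3 and Pkm to the right and fills their symbols in both genotypes, and the scaling moves Fbp1 and Pck1 to the left of 0.

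The arrays lay on 2 slides, and only WT CCl4 1 shared a slide with controls. Within that slide it differed from the mean of the WT controls by +1.04 for Hk1, +1.20 for Hk2, +0.50 for Hk3, +1.71 for Pklr and +1.05 for G6pc, and by −0.13 for Pck1, −0.02 for Fbp1 and +0.35 for Gys2. WT CCl4 1 was also the highest array for Pklr, at 13.40 against a mean of 12.30 on the other 4 WT CCl4 arrays. With slide as a fixed term the CCl4 difference rests on this array in both genotypes, and the values were 1.71 in WT and 1.92 in Lcn2-/- livers for Pklr. In that fit Hk1 (1.04, limma, adjusted p = 0.374) and G6pc (1.05, adjusted p = 0.353) were not called in WT, and with 1 CCl4 array it does not set Pklr apart from them.

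None of the 8 genes was called between the genotypes, with limma. The Lcn2-/- arrays lay in 1 tier of the slides and the WT arrays other than WT CCl4 1 in the other. Genotype and tier can therefore hardly be told apart in these differences. Under CCl4, 0.649% of all genes were called, in the controls 0.517%, and 0.0534% had an interaction of genotype and CCl4. No member had an unadjusted p under 0.05 in any of these 3 comparisons, and none was called under any other fit tried. Hk2 differed most under CCl4, where the Lcn2-/- minus WT difference was −0.96 (SE 0.53, adjusted p = 0.448). Its highest Lcn2-/- value of 9.03 lay under the lowest WT value of 9.22, and 3.35% of all genes were lower without overlap in the same comparison. Without both control 3 arrays its adjusted p was 0.0634. No control array enters this difference, so that fit leaves the difference as it was. It lowers the spread shared by the groups by dropping the controls highest in Hk2, and its p is not read as support for a difference. Hk1 differed by −0.52 (adjusted p = 0.559) and Gys2 by +0.33 (adjusted p = 0.392). The second, brighter Gys2 probe, unusable on Lcn2-/- CCl4 4, had means of 16.87 in WT and 16.89 in Lcn2-/- livers with CCl4.

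In the controls, Pck1 was +0.32 in Lcn2-/- over WT livers (SE 0.19, limma, adjusted p = 0.803). Its lowest Lcn2-/- value of 18.01 lay above the highest WT value of 17.91, as 4.15% of all genes did. The interaction was −0.64 for Hk3 (SE 0.99) and between −0.10 and +0.10 for the other members, with adjusted p = 0.999943 throughout. The 95% intervals were wide, from −1.80 to 1.63 for Hk2, −1.27 to 1.11 for Hk1, −1.12 to 1.18 for G6pc and −0.79 to 0.79 for Pklr, so that equal responses were not shown. Leaving out 1 array moved the interaction between −1.27 and 0.41 for Hk3, −0.66 and 0.68 for Hk2, −0.49 and 0.35 for Hk1, and −0.48 and 0.36 for G6pc.

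The isozyme partners of the 8 genes catalyse the same reactions in other cells or compartments. Pkm, the pyruvate kinase of most other cells, was 11.47 ± 1.03 (SD, n = 4) and 12.52 ± 0.28 (n = 5) in WT controls and CCl4 livers and 11.25 ± 0.79 (n = 3) and 11.94 ± 0.53 (n = 4) in the Lcn2-/- groups. By limma it was not called (1.04, adjusted p = 0.110, and 0.69, adjusted p = 0.390) until both control 3 arrays were left out (1.55, adjusted p = 0.000599, and 1.14, adjusted p = 0.0187). The ubiquitous glucose-6-phosphatase G6pc3 and the muscle glycogen synthase Gys1 were not called in either genotype.

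Pck2, the mitochondrial counterpart of Pck1, was well above background on all 9 CCl4 arrays and on none of the 7 controls. Its measured means were 4.19 in WT controls and 5.69 with CCl4, and 3.90 and 5.63 in Lcn2-/- livers. Against the lowest detected signals it was at least 1.73-fold higher in WT (limma, adjusted p = 2.37e-05) and at least 1.08-fold higher in Lcn2-/- livers (adjusted p = 3.33e-05). The muscle form of fructose bisphosphatase, Fbp2, was at least 1.82-fold higher in WT livers (means 4.41 and 5.76, adjusted p = 0.0211). It passed the test in Lcn2-/- livers (adjusted p = 0.00338), where only 2 of 4 CCl4 arrays measured it and no fold is given. G6pc2, the islet form, was well above background on 2 of 4 WT and 1 of 3 Lcn2-/- controls and on no CCl4 array, so no fold is given. Its means were 5.16 in WT controls and 3.00 with CCl4 (adjusted p = 0.00101), and 5.67 and 3.11 in Lcn2-/- livers (adjusted p = 0.00121). These 3 dim genes passed the filter on dim probes only through the groups in which they were higher, so their calls are not counted as a result about the partners. In the fit with no such filter the adjusted p in WT and Lcn2-/- livers was 5.17e-05 and 7.28e-05 for Pck2, 0.0347 and 0.00629 for Fbp2, and 0.00211 and 0.00247 for G6pc2. The calls of Fbp2 and G6pc2 were lost with slide as a fixed term, and that of Fbp2 in WT also without both control 3 arrays or with tier of the slide as a term.

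**Figure D4:**
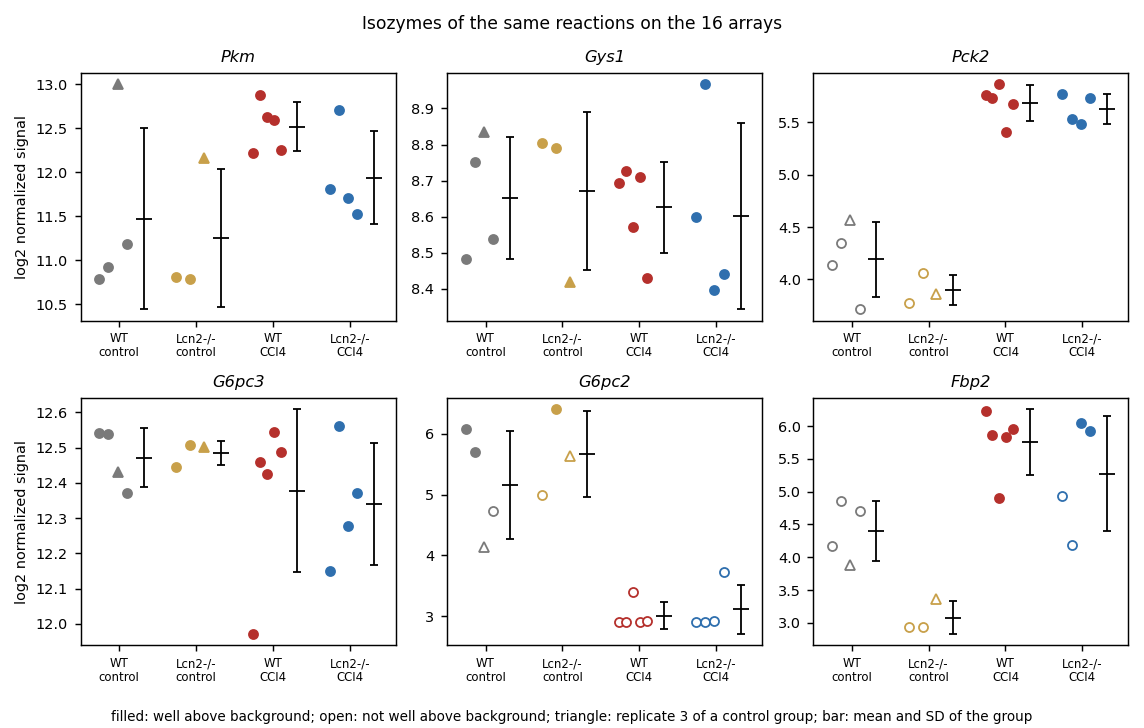
Log2 normalized signal (y axis) of the 6 isozyme partners on each array by group (x axis), with filled symbols for arrays on which the probe was well above background, triangles for replicate 3 of a control group and bars for the mean and SD. Pck2 is filled on the 9 CCl4 arrays and open on the 7 controls, and the Pkm triangle lies above the CCl4 arrays in WT and among them in Lcn2-/- mice.

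The wider pathway lists were read to place these genes. For each list, the shares called over all genes were 16.7% in WT and 12.1% in Lcn2-/- livers. Without both control 3 arrays they were 22.3% and 15.1%. No list was tested against these shares. Among 24 other glycolysis genes tested of 25 listed, 7 were called higher and none lower in WT livers, and 6 higher and 1 lower in Lcn2-/- livers. The median difference of the list was 0.26 in WT and 0.28 in Lcn2-/- livers, beside −0.03 and −0.02 over all genes. Eno2, the enolase of neurons, differed most (2.60, limma, adjusted p = 0.000857, in WT and 2.01, adjusted p = 0.0157, in Lcn2-/- livers). Gpi1, which interconverts glucose 6-phosphate and fructose 6-phosphate, rose by 0.77 (SE 0.10) and 0.67 (SE 0.12). Of the phosphofructokinase forms the liver form Pfkl rose (0.40 and 0.64), the muscle form Pfkm did not pass (−0.05 and −0.07), and the platelet form Pfkp did not pass either (1.13, adjusted p = 0.116, and 1.02, adjusted p = 0.239). The aldolases Aldoa (0.32 and 0.22) and Aldoc (−0.36 and −0.16) were not called. Pfkfb4 and Ldhb rose in WT livers (1.49 and 0.58), and in Lcn2-/- livers Ldhb rose (0.69) and Pfkfb2 fell by 0.58.

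In the gluconeogenesis list of 17 genes, 2 were called higher and 1 lower in WT livers and 1 higher in Lcn2-/- livers. These counts are near the share over all genes in WT (16.7%) and below it in Lcn2-/- livers (12.1%). They are not read as a result about the list. The median was 0.08 and 0.30, or 0.04 and 0.23 without both control 3 arrays. Sds, which turns serine into pyruvate, was higher in WT livers with CCl4 by 1.42 (limma, adjusted p = 0.00136), and the aminotransferase Got1 by 0.93 (adjusted p = 0.0283). Irs2, the insulin receptor substrate, fell by 1.09 in WT livers (adjusted p = 0.00188), and under CCl4 it was +1.03 in Lcn2-/- over WT livers (adjusted p = 0.0338). In that genotype comparison genotype nearly coincides with tier of the slide, and their parts cannot be told apart. In Lcn2-/- livers the alanine aminotransferase Gpt was the gene called (0.43, adjusted p = 0.0397). Ppargc1a, Foxo1, Crtc2 and Slc37a4, known controllers or partners of Pck1 and G6pc, were not called in either genotype.

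Several other glycogen genes were called although Gys2 was not. Of 16 tested of 17, 3 were called higher and 1 lower in WT livers and 4 higher in Lcn2-/- livers. Among all genes 16.7% and 12.1% were called. The medians of the list were 0.11 and 0.14. Without both control 3 arrays, 5 were called higher in WT. The medians were then 0.07 and 0.04, so that the order of the genotypes turned. Ppp1r3g, a subunit that directs phosphatase to glycogen, rose by 3.04 (limma, adjusted p = 0.00282) and 3.33 (adjusted p = 0.00505). The brain form of glycogen phosphorylase, Pygb, rose by 2.16 and 2.29, the liver form Pygl by 0.61 and 0.56, and the muscle form Pygm did not pass (−0.07 and 0.10). Pygl lost its call with 75th percentile scaling. Ppp1r3c, another targeting subunit, fell by 1.23 in WT livers, and Pgm2 rose by 0.78 in Lcn2-/- livers.

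Of 8 glucose transporter genes, Slc2a4 alone was called in each genotype, and the median of the list was 0.13 and 0.21. With both control 3 arrays left out the median was 0.14 and 0.10, so that the order of the genotypes turned. Without both control 3 arrays, Slc2a4 and Slc2a3 were called higher in each genotype. So was Slc2a10 in WT livers, but it was well above background on 5 of 5 WT CCl4 arrays and 0 of 4 WT controls, passed the filter mainly through the group where it was higher, and is not counted as a result. Slc2a4, the insulin-responsive transporter of muscle and fat, went from 6.33 ± 0.49 (SD, n = 4) in WT controls to 10.55 ± 0.88 (n = 5) with CCl4, which is 18.6-fold (limma, adjusted p = 6.29e-05). For the Lcn2-/- mice it went from 7.21 ± 0.96 (n = 3) to 10.09 ± 0.82 (n = 4), or 7.35-fold (adjusted p = 0.00429). Of the 5 skeletal muscle and 5 adipose marker genes, 1 and 2 passed the filter on dim probes, and none was called higher in either genotype. The hepatocyte transporter Slc2a2 was not called (0.21 and 0.25), nor were Slc2a1 (−0.13 and −0.11) and Slc2a3 (0.82 and 1.15).

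The pentose phosphate list of 8 genes had 4 called higher in WT livers and 1 in Lcn2-/- livers, with medians of 0.35 and 0.19. With both control 3 arrays left out, 5 were called higher and 1 lower (H6pd, −0.39, limma, adjusted p = 0.0236) in WT livers, and 2 higher in Lcn2-/- livers. The isomerase Rpia rose by 0.93, the dehydrogenase Pgd by 0.86 and the transketolase Tkt by 0.42 in WT livers, and the transaldolase Taldo1 by 0.33 in Lcn2-/- livers. Of 13 genes that govern the entry of pyruvate into mitochondria, 5 were called higher in WT and 3 in Lcn2-/- livers, with medians of 0.23 and 0.21. Among them Pdk4, a kinase that switches off pyruvate dehydrogenase, rose by 1.00 (limma, adjusted p = 0.0122) and 1.65 (adjusted p = 0.00158), and in WT livers Pdk3 by 1.42 and the opposing phosphatase Pdp1 by 0.93. In Lcn2-/- livers Pdk2 rose by 0.54 and Dld by 0.42. In fructose and sorbitol metabolism 2 of 4 tested genes (medians 0.62 and 0.40) rose in both genotypes, Khk (0.59 and 0.64) and Tkfc (0.64 and 0.79), but Khk was 0.14 in WT with 75th percentile scaling (adjusted p = 0.456), and without both control 3 arrays 1 of the 4 was called in Lcn2-/- livers. None of 10 glucose-sensing regulators, such as Mlxipl, Srebf1 and Hnf4a, was called in either genotype by limma, at medians of 0.07 and 0.06, and 1 (Mlxipl, in WT) had an unadjusted p under 0.05.

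**Figure D5:**
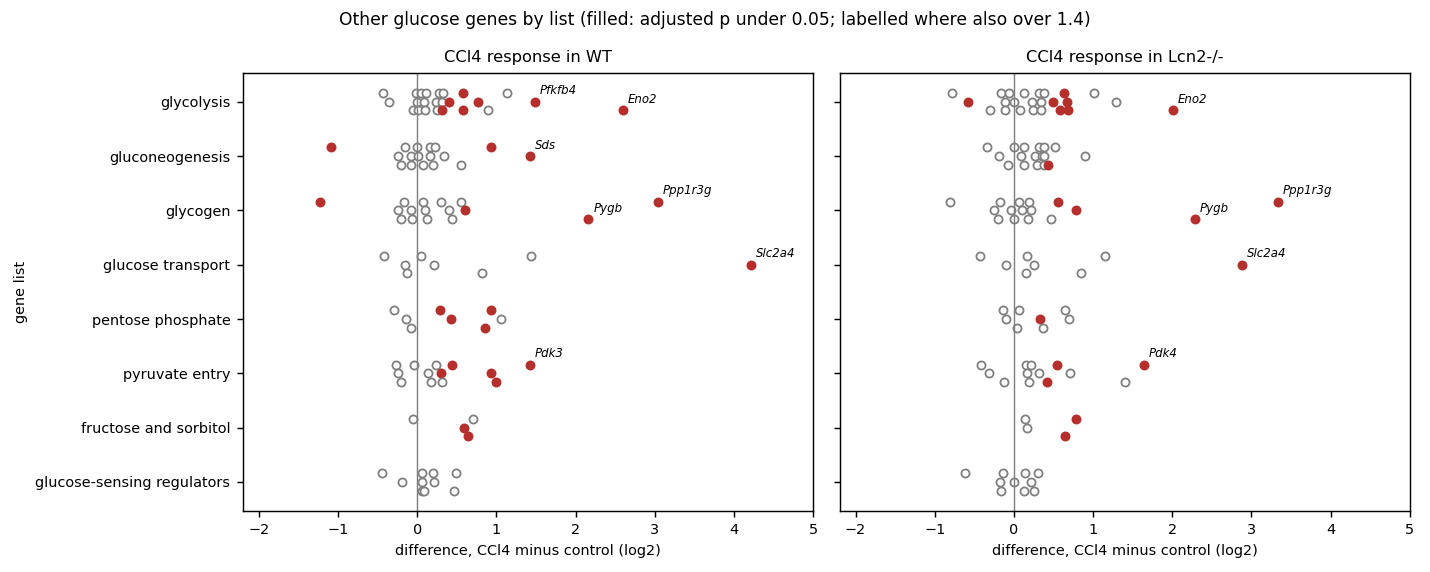
Difference between CCl4 and control (x axis, log2) of the other glucose genes by list (y axis), with WT on the left and Lcn2-/- on the right. Each point is a gene and filled points have an adjusted p under 0.05. Most genes lie near 0, and Slc2a4, Ppp1r3g, Eno2 and Pygb lie farthest to the right in both genotypes.

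The genes most like the called members over the 16 arrays were found from the root mean square of the difference between centred log2 values. Close to Hk1 lay P2ry14 (0.20), a receptor for UDP-glucose. Pklr was nearest to Miox (0.26), the enzyme that oxidizes myo-inositol, and to Lgi4 (0.28), and G6pc to Mycl (0.37) and 5830433I10Rik (0.42).

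Other marker lists were read beside these genes. The shares called over all genes were 16.7% in WT and 12.1% in Lcn2-/- livers, and no list was tested against them. Stellate cell and fibroblast genes were called higher for 8 of 8 in WT and 7 of 8 in Lcn2-/- livers, with list means of 11.12 to 12.73 in controls and 13.24 to 14.30 with CCl4. The mean of the pericentral hepatocyte genes lay between 15.02 and 15.42 in controls and between 13.18 and 14.12 with CCl4, and 3 of 7 (Glul, Oat and Slc1a2) were called lower in each genotype. Of the periportal genes, 2 of 6 were called higher in WT and 1 in Lcn2-/- livers, or 2 there without both control 3 arrays. Of genes known to follow feeding and insulin, 5 of 7 were called higher in WT and 2 in Lcn2-/- livers, and of fasting genes 2 and 4 of 9. Among 11 clock genes 1 was called lower in WT livers and none in Lcn2-/- livers, where none had an unadjusted p under 0.05 either. The part of zonation, feeding and time of day in the results for Pklr, G6pc and Pck1 was not tested.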

How the data were processed

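Total liver RNA of 16 samples was labelled with Cy3 and hybridized to 16 Agilent arrays of 62976 spots. Per the file headers the deposited scanner intensity is the processed signal, from which background had been subtracted. A second table deposited by the authors holds log2 values and served as an alternative, and the submitters' processing notes name limma without a version. Intensities were put on a log2 scale and quantile normalized over the 16 arrays in R 4.3.3. The 3671 control spots and spots marked as outliers were left out, spots were averaged per probe, and 33014 of 55681 probes that were well above background on at least 3 arrays were kept. The brightest probe that was usable on every array stood for each gene, giving 24357 genes. Symbols were updated through RefSeq accessions (GRCm38.p6, names and promoter sequences only), which matched 49.8% of gene spots and 61.0% of tested genes. Probe positions are those of the files (mm9). Group means were fitted with limma 3.58.1, and 5 comparisons were tested with Benjamini-Hochberg adjustment over all genes at 0.05, with no minimum fold. A probe not above background in a whole group has only a bound, computed from the lowest signal detected on each array, so a fold is then given as "at least". The number of arrays limits the precision. Intervals are 95% intervals of the fit.

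The members and gene lists were chosen with earlier results of these data known. The genes named are all 8 members, their isozyme partners and sister forms, up to 3 called genes with the largest difference per list and comparison, and the 2 genes nearest to each called member. Some genes that this rule names are not reported here. The calculation was tested on simulated data. Alternatives were 75th percentile scaling, normexp background correction, the authors' table, other filters, the mean of all probes, slide or tier of the slide as a term, array weights, a trended and robust spread, a replicate block and arrays left out. Deviations of same-numbered WT and Lcn2-/- controls 1, 2 and 3 correlated at 0.233, 0.368 and 0.552. Same-numbered arrays of other pairs of groups had correlations from −0.22 to 0.25. Arrays of unlike number were not compared, so these values cannot show whether the numbers pair. Same-numbered controls also lay in the same column of 1 slide, and no label says what a number marks.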

Additional observations from a re-analysis of the deposited data

Results flagged for a closer look

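Of 45 groups of 4 or 5 arrays in which a gene's farthest array was set against the spread of its group, 4 had an array beyond the limit, where chance alone gives about 1 in 20. WT CCl4 1 was low in G6pc3 at 11.97, with the next array at 12.43. WT CCl4 3 was low in Fbp2 at 4.90, with the next at 5.84. G6pc2 read 3.40 on WT CCl4 3 and 3.72 on Lcn2-/- CCl4 4, where the next arrays were at 2.91, and all of these G6pc2 values were not well above background. None of the 8 genes had such an array.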

How the results depend on the processing

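In WT livers, 3 of the 8 genes were called with CCl4. The count was 1 without the filter on dim probes, with slide or tier of the slide as a fixed term (the tier was chosen after seeing the data) or with the replicate block, 2 with the mean of all probes, 5 with array weights, 4 without both control 3 arrays and 0 to 3 when 1 array was left out. It was 0 without WT control 1, WT control 4 or WT CCl4 4. It was 1 without WT control 2 (G6pc), WT CCl4 1 (Pklr) or WT CCl4 5 (Pklr). In Lcn2-/- livers the count of 0 became 1 with slide or tier as a fixed term (Pklr), 4 with array weights, 4 without both control 3 arrays and 0 to 4 when 1 array was left out (4 without Lcn2-/- control 3, 1 without WT control 3 or WT CCl4 1). With the replicate block Pklr was 0.94 (limma adjusted p = 0.0400) and G6pc 1.01 (adjusted p = 0.123) in WT, where Hk1 also lost its call. Between the control groups the block left the count at 0. Differences smaller than their SE were given no direction. With 75th percentile scaling signs turned for Fbp1 (−0.50 in WT, −0.34 in Lcn2-/-), Pck1 (−0.22), Slc2a2 (−0.030), Gpt (−0.12) and Taldo1 (−0.0098) in WT, with slide as a fixed term for Pck1 (−0.13), and with the mean of all probes for Pfkp in Lcn2-/- livers (−0.28). The cause was not tested. Of 25 listed genes named as called in WT, 18 were still called with that scaling, 10 with slide as a fixed term and 17 to 25 when 1 array was left out, and of 20 in Lcn2-/- livers 12, 4 and 13 to 20. Over all genes, 4064 were called in WT (1295 to 7006 over the alternatives), 2958 in Lcn2-/- livers (426 to 6975), 158 between genotypes under CCl4 (72 to 321), 126 in controls (48 to 1253) and 13 in the interaction (2 to 19). The dim genes Pck2 and Fbp2 have bounds only, and G6pc2 has none.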

Other observations

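Among genes that govern pyruvate use, the kinase Pdk1 differed between genotypes rather than with CCl4. Its log2 signal was 11.28 ± 0.13 (SD, n = 4) in WT controls, 12.52 ± 0.21 (n = 3) in Lcn2-/- controls, 11.51 ± 0.29 (n = 5) in WT livers with CCl4 and 12.70 ± 0.21 (n = 4) in Lcn2-/- livers with CCl4. By limma, Lcn2-/- livers exceeded WT livers by 1.20 (SE 0.15) when CCl4 was given, with an adjusted p of 0.00128, and by 1.24 (SE 0.18) without it, with an adjusted p of 0.00265. The groups of 1 genotype lay mostly in 1 tier of the slides, and with the tier as a fixed term Pdk1 was no longer called, at 0.72 (adjusted p = 0.244) under CCl4 and 0.64 (adjusted p = 0.695) in controls. Genotype and tier cannot be told apart beyond the single WT array that shared a tier with Lcn2-/- arrays. Pdk2 was also higher in Lcn2-/- livers under CCl4, by 0.54 (adjusted p = 0.0193), and lost its call with 75th percentile scaling, the mean of all probes, the replicate block and the tier as a term.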
